A study of Mus musculus with 15 samples.

Results

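The mitochondrial ribosomal protein genes were followed in cultured mouse dendritic cells, which present antigen to T cells, through 15 RNA sequencing libraries. Members were the genes whose symbol is Mrpl or Mrps followed by a number and at most 1 further letter, with 10 or more reads in at least 3 of the 15 libraries. That gave 78 of the 50554 genes counted, 49 named Mrpl and 29 named Mrps, and no gene of this name pattern failed the read minimum. Each of the 78 also passed the filter on low counts that left 20865 genes to test, and a member had between 112 and 4019 reads in a library.

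The study compared the response to lipopolysaccharide (LPS, a bacterial cell wall component sensed by TLR4) between 2 Mysm1 genotypes. MYSM1 is a histone H2A deubiquitinase. The mice carried CreERT2, a Cre recombinase that tamoxifen switches on, and a floxed Mysm1 allele, so all 4 groups had 1 deleted allele (Δ). The control mice (Mysm1 fl/+, written Δ/+ after deletion) kept a wild-type allele, and the Mysm1 fl/DN mice (Δ/DN) kept an allele for a catalytically inactive protein. Marrow, taken over 12 weeks after tamoxifen, was grown with GM-CSF at 20 ng/mL for 9 days and then kept for 18 h without LPS (US) or with 10 ng/mL. The Δ/+ cultures gave 4 US and 3 LPS libraries, and the Δ/DN cultures gave 4 of each kind. The series describes the loss as one across blood cells, so it was not limited to dendritic cells. Whether each culture came from a separate mouse is not given in the sources used here, so p-values measure the spread between cultures at most.

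Mitochondria keep their own ribosome, which translates only the handful of respiratory chain and ATP synthase proteins encoded in mitochondrial DNA. Its RNAs are mitochondrial, but every one of its proteins is made from a nuclear gene, translated in the cytosol and imported. Some of these proteins descend from bacterial ribosomal proteins, and others were added in the mitochondrial lineage. In dendritic cells and macrophages, LPS is known to shift energy metabolism from respiration towards glycolysis.

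Libraries held between 37256651 and 104041282 reads. Levels are CPM, reads scaled to a common library size by TMM, a method that sets libraries level on the bulk of their genes. Of 12 dendritic cell markers, 11 had a mean of at least 1 CPM in each group. All 7 macrophage markers did too. They summed to 1247 to 1501 CPM in Δ/+ libraries and to 1095 to 1560 CPM in Δ/DN libraries. The share of macrophages in the cultures was not tested. The letters of the mouse groups stand for one genotype in the sample labels and for the other in the series description. Directions between genotypes follow the sample labels and turn round if the series description is right, and reads over Mysm1 do not separate its alleles (50.4 ± 3.25 CPM in Δ/+ US and 41.2 ± 9.23 CPM in Δ/DN US, SD, n = 4 each). Itgax, the gene of CD11c, had a mean of 936 CPM in Δ/+ US and 976 CPM in Δ/DN US. Summed neutrophil markers (7 genes) ranged from 42.9 to 92.8 CPM in Δ/+ libraries and from 67.3 to 882 CPM in Δ/DN libraries, and their part in the genotype comparisons was not tested. Library names carry a set number, 2 or 3, whose meaning is not given in the sources used here, and set 3 holds no Δ/+ LPS library. B cell markers summed to at most 3.09 CPM, T and NK cell markers to at most 0.585 CPM (Trac had no reads), and mast cell and basophil markers to at most 2.5 CPM in Δ/+ libraries, while Δ/DN libraries reached 11.8 CPM. Stroma markers (5 genes) summed to 9.97 to 19.7 CPM in Δ/+ libraries, while Δ/DN libraries held 4.06 to 10.4 CPM, and the part of either list in the genotype comparisons was not tested. The Δ/DN US library of replicate 3 stood apart, with 10.4% of its reads from 7SL RNA, against 3.41% in the lowest Δ/DN US library. Without it, Mrpl30, Mrpl46, Mrpl54 and Mrps18c were also called higher with LPS in Δ/DN, and calls that did not pass without it are named beside their values.

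Sequence upstream of 7 of the members with the largest LPS responses is shown first, because these genes carry the falls and the rises described below. Mrps35 and Mrpl13, which belong with them, had no entry in the promoter table. Each is the 100 bases before the RefSeq transcription start on GRCm38.p6, a build older than the one named for the counts. Capitals mark matches to GCGCANGCG (nuclear respiratory factor NRF1) or to CCGGAAG (the ETS core bound by GABPA), searched on both strands; in Mrpl32 the first run of capitals holds a match on each strand, and these overlap. Matches not wholly within these 100 bases are not shown. The 300 bases counted in the next paragraph run from 250 before the start to 50 after it. In the part not printed, Mrps18b held an NRF1 and an ETS match and Mrps26 an NRF1 match. Mrpl49 and Mrpl32 held the YY1 element AAGATGGC there. Mrpl12, Mrpl41, Mrps18b, Mrpl49 and Mrps26 were among the strongest falls, and Mrpl27 and Mrpl32 among the strongest rises. Their positions are chr11:120484537-120484636 (plus strand) for Mrpl12, chr2:24975099-24975198 (minus) for Mrpl41, chr17:35916441-35916540 (minus) for Mrps18b, chr19:6057756-6057855 (minus) for Mrpl49, chr2:130563657-130563756 (plus) for Mrps26, chr11:94653691-94653790 (plus) for Mrpl27 and chr13:14613038-14613137 (minus) for Mrpl32.
Mrpl12: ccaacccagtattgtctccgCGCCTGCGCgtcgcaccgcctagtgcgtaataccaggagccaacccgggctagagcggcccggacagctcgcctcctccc
Mrpl41: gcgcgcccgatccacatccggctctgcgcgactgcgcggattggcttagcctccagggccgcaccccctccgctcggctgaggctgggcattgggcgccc
Mrps18b: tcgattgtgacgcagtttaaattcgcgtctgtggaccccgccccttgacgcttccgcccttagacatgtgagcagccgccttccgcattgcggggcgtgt
Mrpl49: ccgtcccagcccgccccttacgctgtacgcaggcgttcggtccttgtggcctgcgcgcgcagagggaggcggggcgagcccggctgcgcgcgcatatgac
Mrps26: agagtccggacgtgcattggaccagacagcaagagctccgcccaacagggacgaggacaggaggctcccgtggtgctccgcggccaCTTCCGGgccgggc
Mrpl27: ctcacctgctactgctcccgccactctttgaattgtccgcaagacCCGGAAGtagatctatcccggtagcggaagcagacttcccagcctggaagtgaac
Mrpl32: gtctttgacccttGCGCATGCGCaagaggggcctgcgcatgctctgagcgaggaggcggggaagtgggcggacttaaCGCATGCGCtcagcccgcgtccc

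A promoter entry, 300 bases long, existed for 69 of the 78 members. The ETS core lay in 26 of them (37.7%), against 17.4% of the 12829 tested genes with an entry. The NRF1 match lay in 16 (23.2%, against 12.8%) and AAGATGGC, the YY1 element, in 12 (17.4%, against 4.79%). CACGTG, the E-box bound by MYC, lay in 5 (7.25%, against 10.8%). None held GGGANTTCC, an NF-kB site, against 2.57% of the tested genes. Among the 27 promoters of members that fell with LPS in both genotypes, 11 held the ETS core (40.7%), and among the 29 of members called in neither genotype, 11 did (37.9%). The NRF1 match lay in 4 (14.8%) and 8 (27.6%) of the same promoters. These are matches of letters, not measured binding.

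These are bulk samples, in which fewer cells of a type and less RNA per cell cannot be told apart. In total, the 78 genes took between 0.130% and 0.139% of the reads of a Δ/+ US library and between 0.135% and 0.159% of a Δ/DN US library. With LPS the share was between 0.0722% and 0.0774% in Δ/+ and between 0.0769% and 0.102% in Δ/DN, so the ranges with and without LPS did not overlap in either genotype. Most of that drop was shared with the bulk of genes. TMM factors were between 1.04 and 1.33 in US libraries and between 0.734 and 0.940 in LPS libraries, and after this scaling the summed level was 1129 ± 66.7 CPM (SD, n = 4) in Δ/+ without LPS and 980 ± 24.6 CPM (n = 3) with it. In Δ/DN it was 1188 ± 93.9 CPM without LPS and 1009 ± 54.1 CPM with it (n = 4 each). The Δ/+ ranges stayed apart (1062 to 1198 against 954 to 1003 CPM), and the Δ/DN ranges met (1074 to 1301 against 956 to 1084 CPM). Scaling by library totals alone moved the median log2 change of all genes with LPS by -0.65 in Δ/+ and -0.58 in Δ/DN, and that of the genotype difference with LPS by 0.15. All changes below are relative to the TMM scale unless library totals are named.

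**Figure D1:**
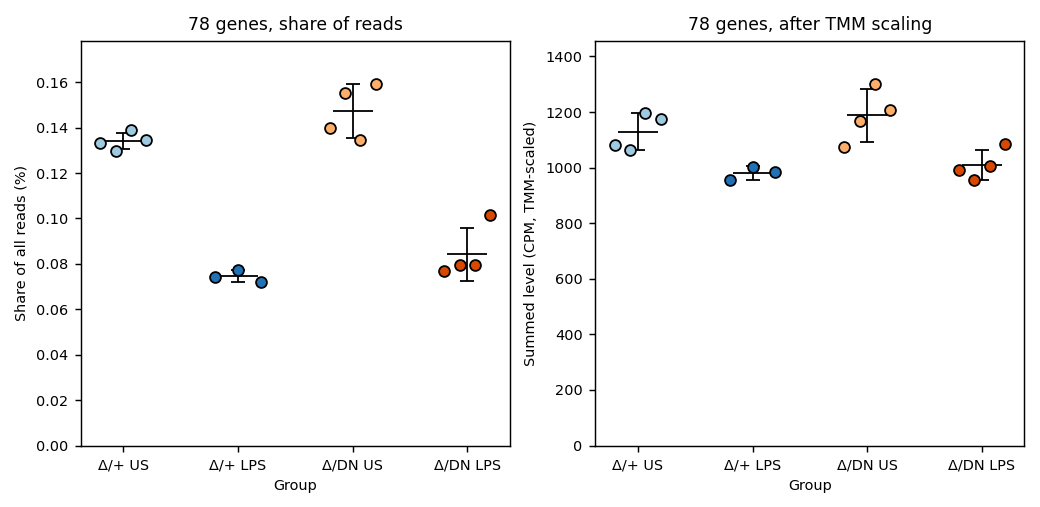
Each point is a library, the long bar is the group mean and the whiskers are ± SD (n = 4, 3, 4 and 4), with the summed share of reads (%) of the 78 genes on the left and their summed level (CPM) after TMM scaling on the right. LPS libraries sit between 0.0722% and 0.102% of reads against 0.130% to 0.159% without LPS, a wider gap than after TMM scaling.

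Levels per kilobase of annotated transcript differed widely between members. In Δ/+ US, Mrps21 (45.9 ± 3.98 CPM per kilobase, SD, n = 4), Mrpl52 (41.2 ± 2.40), Mrpl33 (30.2 ± 3.35), Mrpl20 (25.5 ± 0.85) and Mrpl30 (24.97 ± 2.04) were highest. Mrpl47 (1.69 ± 0.34 CPM per kilobase), Mrps35 (2.24 ± 0.15), Mrps25 (2.30 ± 0.16), Mrps26 (2.78 ± 0.42) and Mrpl57 (3.07 ± 0.22) were lowest. Taking mean ± SD as the spread, Mrps21 and Mrpl52 overlapped, as did Mrpl20 and Mrpl30, and so did each pair of neighbours among the lowest except Mrpl47 and Mrps35. The 5 lowest all have an annotated transcript of 2877 bases or more and the 5 highest one of 969 bases or fewer. These levels and ranks therefore depend on the transcript chosen to stand for each gene. The length deposited with the counts is 962 bases for Mrps26 and 872 for Mrpl47, against 4278 and 3364 used here. For Mrps35, Mrps25 and Mrpl57 the deposited length is the longer one, and the ranking was not repeated with deposited lengths. With LPS in Δ/+, Mrpl27 entered the 5 highest at 33.7 CPM per kilobase.

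The comparison of LPS with US libraries asked how these genes respond to stimulation in each genotype. With LPS in Δ/+ cells, 33 of the 78 members fell (25.3% of all genes tested fell), 7 rose (22.4% of all genes rose) and 38 did not pass the test. In Δ/DN cells, 36 fell (25.1% of all genes) and 5 rose (23.1% of all genes), and 37 did not pass. The median log2 change of the members was -0.19 in Δ/+ and -0.23 in Δ/DN, beside -0.08 and -0.09 over all genes tested. A gene was said to rise or fall where its adjusted p was under 0.05 in edgeR's quasi-likelihood test with Benjamini-Hochberg adjustment over 20865 genes, and all adjusted p-values are from that test. On the TMM scale, 44 of the 78 in Δ/+ and 46 in Δ/DN had an unadjusted p under 0.05 in that test. Of the 20865 genes tested, 11099 and 11188 did. DESeq2, with its own size factors, called 9 and 7 members higher. With library totals in place of TMM, 71 members were called lower and 1 higher in Δ/+ and 73 lower and 0 higher in Δ/DN. With that scaling the median log2 change was -0.73 in Δ/+ and -0.67 in Δ/DN over all genes tested, and -0.84 and -0.80 for the members. These counts alone therefore do not set the members apart from other genes. The rises, other than that of Mrpl27 in Δ/+, were called relative to the bulk of genes and not to total reads. In library set 2 alone, 9 rose and 31 fell in Δ/+ and 5 rose and 25 fell in Δ/DN. The number of rises also hung on single libraries: without Δ/+ LPS replicate 3 it was 4 in Δ/+, and without Δ/DN US replicate 3 it was 9 in Δ/DN.

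The genotypes share no library in these comparisons, but their calls are not independent. Both came from 1 fit with a common scaling, estimate of spread and library set term. Without Δ/+ LPS replicate 1, for instance, 4 members rose in Δ/DN. Of the members that fell, 31 fell in both genotypes (93.9% of the Δ/+ list and 86.1% of the Δ/DN list). Mrpl13, Mrpl27 and Mrpl32 rose in both (42.9% and 60.0%), 31 passed in neither and none passed in opposite directions. The estimates had the same sign in 67 of 78 members and lay within 0.2 of each other in 54. Neither this agreement nor the overlap of calls was counted over all genes tested. The difference of the LPS effects passed for 1 of the 20865 genes tested, so the agreement is not shown to be particular to the members. Library names tied the treated and the untreated library of 7 cultures together. Within cultures, 40 members were lower with LPS in each of the 7, where 26.8% of all genes tested were, and 7 members were higher in each (Mrpl13, Mrpl27, Mrpl30, Mrpl32, Mrpl54, Mrps18c and Mrps6), where 24% of all genes were.

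**Figure D2:**
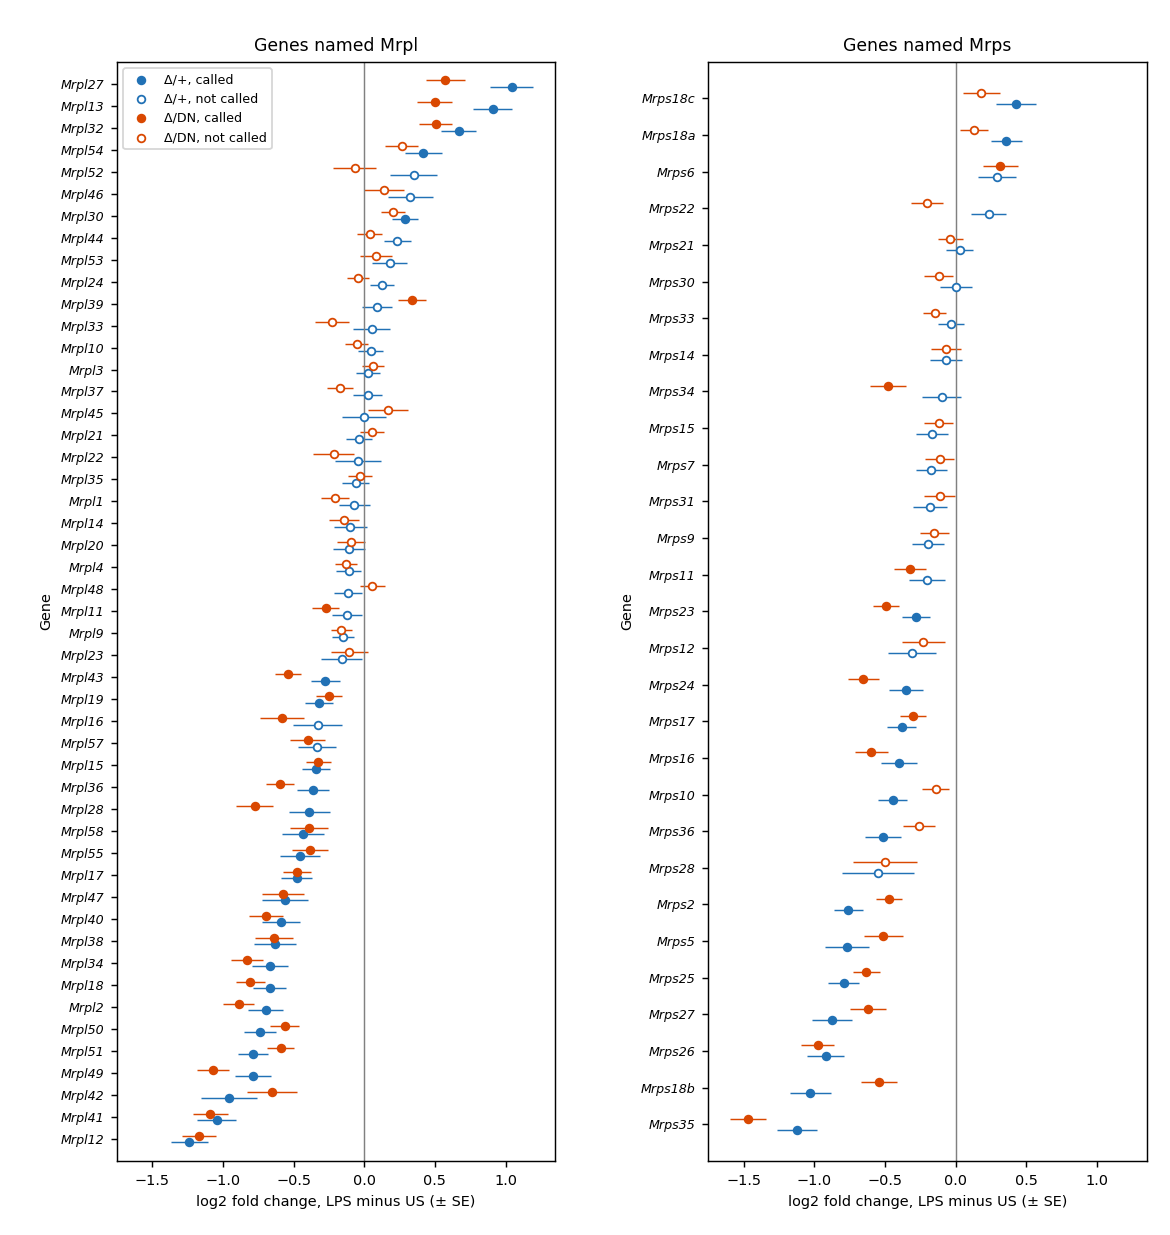
Each row is a gene, the x axis is its log2 fold change with LPS (± SE) in Δ/+ (blue) and Δ/DN (orange), and filled points passed an adjusted p of 0.05. Mrpl12, Mrpl41 and Mrps35 lie below -1 in both genotypes and Mrpl27, Mrpl13 and Mrpl32 above 0.4 in both on the TMM scale; with library totals Mrpl13 (-0.08) and Mrpl32 (-0.09) lie below 0 in Δ/DN.

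Mrpl12 encodes the stalk protein that recruits translation factors to the large subunit and is also known to bind the mitochondrial RNA polymerase. In replicate order its level was 22.2, 21.96, 29.7 and 30.05 CPM in Δ/+ without LPS and 10.3, 11.7 and 9.54 CPM with it. The Δ/DN libraries were at 22.9, 25.5, 30.9 and 26.4 CPM without LPS and 11.3, 10.3, 11.1 and 14.2 CPM with it. Every LPS library lay below every US library. The log2 change was -1.24 ± 0.13 (SE) in Δ/+ and -1.17 ± 0.12 in Δ/DN, with adjusted p-values of 2.46e-06 and 1.59e-06, and the level was lower with LPS in each of the 7 paired cultures. Of the other stalk genes, Mrpl10, which anchors the stalk, was at 0.05 ± 0.09 and -0.06 ± 0.08, and Mrpl53 at 0.18 ± 0.12 and 0.08 ± 0.11 in Δ/+ and Δ/DN, none of which passed (with library totals Mrpl10 was at -0.61 and Mrpl53 at -0.47 in Δ/+). Mrpl11, at the stalk base, passed in Δ/DN (-0.27 ± 0.10, adjusted p = 0.030) and not in Δ/+ (-0.12 ± 0.11), and that call passed in 13 of 24 alternative settings. It did not pass with DESeq2, in set 2 alone, or when Δ/DN US replicate 2, 3 or 4 or Δ/DN LPS replicate 1 or 3 was left out.

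Mrps35, a small subunit protein found in mitochondria and not in bacteria, had the largest fall in Δ/DN. Its levels were 8.82, 8.77, 9.78 and 9.997 CPM in Δ/+ without LPS and 4.28, 4.68 and 3.32 CPM with it. In Δ/DN they were 9.56, 10.6, 12.6 and 13.1 CPM without LPS and 3.97, 3.46, 4.001 and 5.06 CPM with it. The 2 treatments did not overlap in either genotype. Its log2 change was -1.12 ± 0.14 (SE) in Δ/+ and -1.47 ± 0.13 in Δ/DN, with adjusted p-values of 1.21e-05 and 4.02e-07, and the difference of these changes did not pass (-0.35 ± 0.19, adjusted p = 0.627).

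Mrpl41, a large subunit protein without a bacterial counterpart, lay at 8.79, 8.14, 9.57 and 8.53 CPM in Δ/+ without LPS and 3.95, 4.87 and 3.97 CPM with it. In Δ/DN libraries the values were 9.66, 12.2, 11.1 and 9.43 CPM without LPS and 4.82, 4.90, 4.75 and 5.45 CPM with it. All 7 LPS libraries lay under all 8 US libraries. The log2 change was -1.05 ± 0.14 (SE) in Δ/+ and -1.09 ± 0.12 in Δ/DN, with adjusted p-values of 1.57e-05 and 4.05e-06. Among the other large falls, Mrpl49 changed by -0.79 ± 0.13 and -1.07 ± 0.11, Mrps26 by -0.92 ± 0.13 and -0.98 ± 0.12, and Mrpl42 by -0.96 ± 0.20 and -0.65 ± 0.17 in Δ/+ and Δ/DN, and all of these passed. Mrpl42 did not separate the treatments in Δ/DN, where Δ/DN US replicate 3 lay at 8.78 CPM and the other 3 US libraries between 13.2 and 13.8 CPM.

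The 3 S18 genes encode paralogs of bacterial S18 that occupy different places in the mitochondrial ribosome: Mrps18b and Mrps18c are small subunit proteins, and Mrps18a is built into the large subunit. Mrps18b fell with LPS. Its levels were 21.9, 22.2, 24.6 and 23.4 CPM in Δ/+ without LPS and 10.8, 9.87 and 12.4 CPM with it. The Δ/DN libraries were at 19.3, 19.5, 21.05 and 21.5 CPM without LPS and 11.4, 14.2, 11.8 and 18.5 CPM with it. Treatments did not overlap in either genotype, and the Δ/DN LPS library of replicate 4 came closest to the US range. The log2 change was -1.03 ± 0.14 (SE) in Δ/+ and -0.54 ± 0.13 in Δ/DN, with adjusted p-values of 2.96e-05 and 0.00249. Mrps18c and Mrps18a rose in Δ/+ (0.43 ± 0.14, adjusted p = 0.0207, and 0.36 ± 0.11, adjusted p = 0.0136; both turn with library totals, to -0.23 and -0.30). In Δ/DN they were at 0.18 ± 0.13 and 0.13 ± 0.10 and did not pass, but without Δ/DN US replicate 3 Mrps18c passed there (0.34, adjusted p = 0.0228). Neither Δ/+ call passed without Δ/+ LPS replicate 3, nor that of Mrps18c without Δ/+ LPS replicate 1, and they passed in 20 (Mrps18c) and 21 (Mrps18a) of 24 alternative settings.

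Mrpl27, the counterpart of bacterial L27 near the peptidyl transferase centre, had the largest rise. Its levels were 12.8, 11.3, 13.7 and 13.3 CPM in Δ/+ without LPS and 24.2, 24.8 and 27.4 CPM with it. In Δ/DN they were 11.5, 12.1, 19.0 and 12.4 CPM without LPS and 22.04, 17.7, 23.3 and 18.2 CPM with it. The treatments were apart in Δ/+ and met in Δ/DN through Δ/DN US replicate 3. The log2 change was 1.04 ± 0.15 (SE) in Δ/+ and 0.57 ± 0.14 in Δ/DN, with adjusted p-values of 4.46e-05 and 0.00316, and without Δ/DN US replicate 3 the latter was 0.76 (adjusted p = 4.81e-05). With library totals it was 0.38 in Δ/+ and 0.0029 in Δ/DN. A pseudogene, Mrpl27-ps, had at most 102 reads in a library.

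Mrpl13, the counterpart of bacterial L13, lay at 12.0, 11.2, 13.1 and 10.2 CPM in Δ/+ without LPS and 22.2, 21.9 and 22.4 CPM with it. In Δ/DN libraries the values were 14.8, 16.8, 17.0 and 13.2 CPM without LPS and 26.0, 18.6, 24.6 and 18.1 CPM with it. LPS libraries lay above US libraries in both genotypes. The log2 change was 0.91 ± 0.14 (SE) in Δ/+ and 0.50 ± 0.13 in Δ/DN, with adjusted p-values of 6.56e-05 and 0.00426, and with library totals 0.25 and -0.08.

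Mrpl32, whose protein must be cut by a mitochondrial protease before it joins the ribosome, lay at 8.25, 9.41, 10.4 and 11.2 CPM in Δ/+ without LPS and 13.4, 15.4 and 16.9 CPM with it. The Δ/DN libraries were at 8.35, 9.45, 9.24 and 10.1 CPM without LPS and 14.6, 11.2, 13.5 and 13.3 CPM with it. Here too the treatments did not overlap. The log2 change was 0.67 ± 0.13 (SE) in Δ/+ and 0.50 ± 0.12 in Δ/DN, with adjusted p-values of 0.000456 and 0.00205, and with library totals 0.02 and -0.09.

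The other rises were smaller and were each called in 1 genotype. In Δ/+, Mrpl54 rose by 0.42 ± 0.13 and Mrpl30 by 0.29 ± 0.09 (-0.24 and -0.36 with library totals), and in Δ/DN they were at 0.26 ± 0.12 and 0.20 ± 0.09 and did not pass. Both passed in Δ/DN with DESeq2 and when Δ/DN US replicate 3 was left out, and Mrpl54 also with culture as a block and in set 2 alone. In Δ/+ the Mrpl54 call passed in 22 of 24 alternative settings (not without Δ/+ LPS replicate 3) and the Mrpl30 call in 19 (not without Δ/+ LPS replicate 1, Δ/+ LPS replicate 2 or Δ/+ US replicate 2). In Δ/DN, Mrpl39 rose by 0.34 ± 0.10 (adjusted p = 0.00997; 0.47 without Δ/DN US replicate 3; -0.22 with library totals), and in Δ/+ it was at 0.09 ± 0.11. Mrps6 rose by 0.31 ± 0.12 in Δ/DN (adjusted p = 0.0475; -0.27 with library totals) and was at 0.29 ± 0.14 in Δ/+. This call passed in 7 of 24 alternative settings, and leaving out any 1 of 11 libraries ended it. Reads of Mrps6 are uncertain, because its annotated exons share 159 bases on the same strand with Slc5a3, which also rose (0.48 in Δ/+ and 0.43 in Δ/DN). No difference between genotypes is shown by these lists, since the difference itself passed for none of these genes.

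**Figure D3:**
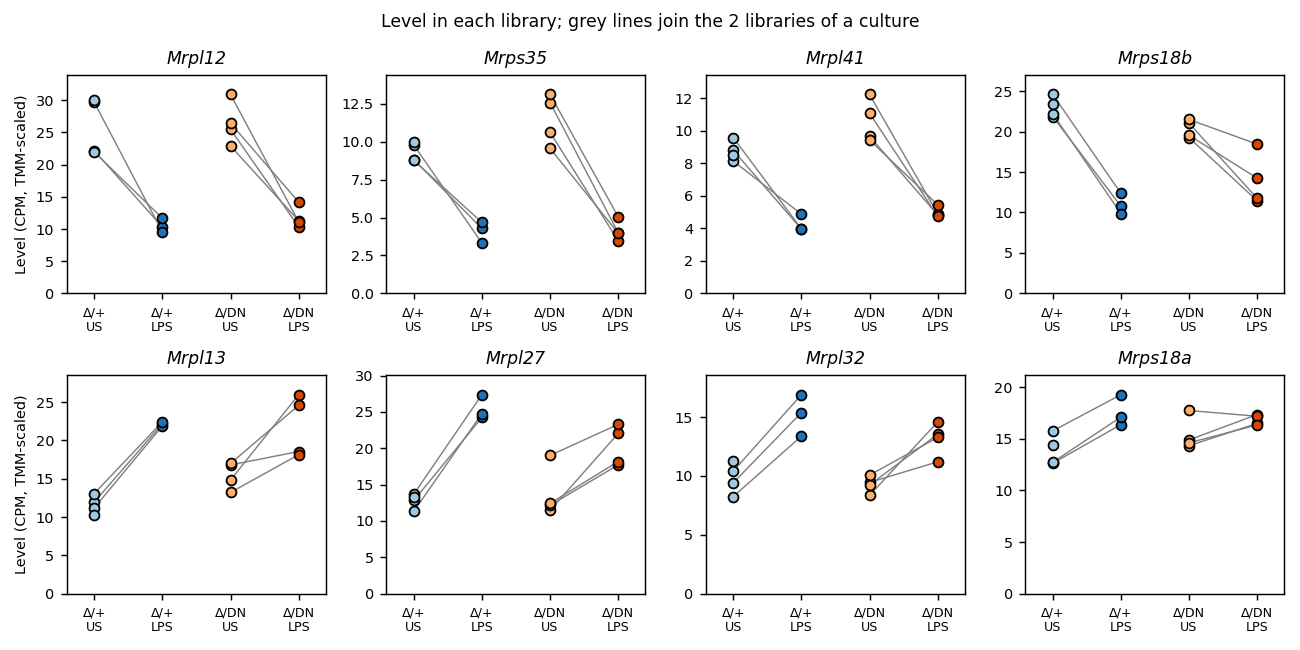
Each panel is a gene, each point is the CPM level of a library on the TMM scale, and grey lines join the libraries of 1 culture. The 4 genes of the top row fell in all 7 cultures, and Mrpl13, Mrpl27 and Mrpl32 rose in all 7, with Mrpl27 in Δ/DN US replicate 3 (19.0 CPM) above the other Δ/DN US libraries; with library totals Mrpl13 (-0.08) and Mrpl32 (-0.09) turn in Δ/DN, and Mrps18a turns in Δ/+ (-0.30) and Δ/DN (-0.44).

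By place in the ribosome, falls were found in each of the regions below. Of all genes tested, 25.3% fell and 22.4% rose in Δ/+, and 25.1% fell and 23.1% rose in Δ/DN. Whether any region differs from these shares was not tested. Of the 9 genes of the central protuberance, 3 fell and 1 (Mrpl27) rose in each genotype, and their median change was -0.06 in Δ/+ and -0.07 in Δ/DN. Around the polypeptide exit tunnel (8 genes), 2 fell in each genotype and Mrpl39 rose in Δ/DN, with medians of -0.02 and -0.08. Of 4 core genes near the peptidyl transferase centre, 1 fell in Δ/+ and 2 in Δ/DN. Of 3 genes at the mRNA entry and decoding sites, Mrps5 and Mrps24 fell in both genotypes, and Mrps24 shares 226 exon bases on the same strand with Urgcp, which rose. Mrpl58, a peptidyl-tRNA hydrolase that frees stalled ribosomes, fell by 0.43 in Δ/+ and by 0.39 in Δ/DN on the log2 scale, with adjusted p-values of 0.0242 and 0.0244. The first call passed in 20 of 24 alternative settings (not without Δ/+ US replicate 1 or 3 or Δ/+ LPS replicate 2 or 3). The second passed in 17 (not in set 2 alone, nor without Δ/DN US replicate 2 or 3 or Δ/DN LPS replicate 1, 2 or 3). Mrps30, which is built into the large subunit, was at 0.0033 ± 0.11 in Δ/+ and -0.12 ± 0.10 in Δ/DN. Mrps36, now known as a subunit of the 2-oxoglutarate dehydrogenase complex and not of the ribosome, fell by 0.51 in Δ/+ (adjusted p = 0.00354) and was at -0.26 ± 0.11 in Δ/DN (adjusted p = 0.0727). Its values are uncertain, because the pseudogenes Mrps36-ps1 (110 to 522 reads in a library) and Mrps36-ps2 (66 to 262) may share reads with Mrps36 (381 to 1203 reads). Mrpl48-ps and Mrpl23-ps1 reached 242 and 233 reads, against at least 616 for Mrpl48 and 383 for Mrpl23.

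Genes with a listed bacterial homolog and those without one both contained falls. The second group is not the same as the proteins added in the mitochondrial lineage. It includes Mrps18a and Mrps18b, paralogs of bacterial S18, and Mrps36, which is not a ribosomal protein. The shares over all genes tested were 25.3% lower and 22.4% higher in Δ/+, and 25.1% lower and 23.1% higher in Δ/DN. In Δ/+, 16 of 44 with a listed homolog fell and 5 rose (median -0.16), and 17 of 34 without one fell and 2 rose (median -0.31). In Δ/DN the counts were 18 and 4 (median -0.19) and 18 and 1 (median -0.40). The 31 members that fell in both genotypes had a median annotated transcript length of 1764 bases, and the 31 called in neither 1288 bases. Their median GC content was 49.8% and 52.0%.

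Of the 78 members, 37 had another gene's start within 1000 bases on the opposite strand. Some of these pairs overlap in their exons, and whether a pair shares a promoter was not tested. In 32 pairs both genes were tested. Both passed in the same direction with LPS in 10 pairs in each genotype, and in opposite directions in 4 pairs in Δ/+ and 2 in Δ/DN. Only the member passed in 7 and 8 pairs, only the neighbour in 5 and 6, and neither in 6 and 6. Of all genes tested, 22.4% rose and 25.3% fell in Δ/+, and 23.1% rose and 25.1% fell in Δ/DN. Whether pairs passed together more often than unlinked genes would was not tested. Psma2, a proteasome subunit gene whose start lies 75 bases from that of Mrpl32, rose with it (0.81 in Δ/+ and 0.75 in Δ/DN). Pnpla7, 935 bases from Mrpl41, fell with it (-1.09 and -0.85). Ppp1r10, a phosphatase regulator 45 bases from the start of Mrps18b, rose (0.71 and 0.98) where Mrps18b fell. Fau, 59 bases from Mrpl49, did not pass (0.26 and -0.0058). The exons of 31 members overlap those of another gene, 5 of them on the same strand, and whether counting used the strand is not given in the sources used here, so reads of these members may be shared. Mrpl13 overlaps Mtbp by 330 exon bases and Mrpl27 overlaps Eme1 by 75 on the opposite strand, and neither neighbour passed in either genotype. Mrpl49 shares 91 exon bases with Syvn1 on the opposite strand, which rose (1.24 and 1.15), and Mrps18b shares 638 with Gm16279, which did not pass. Mrps25 shares 4590 with Nr2c2 on the opposite strand, which fell in Δ/+ (-0.65) and did not pass in Δ/DN (-0.32). Mrpl19 shares 1962 with Gcfc2 (-0.98 and -0.88) and Mrpl43 shares 507 with Twnk (-1.71 and -1.73), and both neighbours fell in both genotypes. Mrps25, Mrpl19 and Mrpl43 also fell in both, and the part of shared reads was not tested.

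Genes that build and run the mitochondrial ribosome also fell (25.3% of all genes tested fell in Δ/+ and 25.1% in Δ/DN). Of 28 assembly and rRNA maturation genes, 15 fell and 1 rose in Δ/+ and 18 fell and 2 rose in Δ/DN, with median changes of -0.56 and -0.47. Rbfa, which processes small subunit RNA, changed by -1.47 ± 0.14 (SE) in Δ/+ and -1.17 ± 0.12 in Δ/DN, with mean levels of 12.5 ± 1.83 (SD, n = 4) and 4.26 ± 0.48 CPM (n = 3) in Δ/+ US and LPS. C1qbp, a matrix protein needed for mitochondrial translation, changed by -1.28 ± 0.13 in Δ/+ (43.1 ± 4.22 and 17.8 ± 0.64 CPM) and by -0.72 ± 0.12 in Δ/DN. Rcc1l changed by -1.05 ± 0.12 and -0.85 ± 0.11, and Mettl17 by -0.75 ± 0.11 and -0.86 ± 0.09. Mrm1, an rRNA methyltransferase, changed by -1.06 in Δ/+ and -0.97 ± 0.14 in Δ/DN, and both passed. Of 15 translation factors, 9 fell and 2 rose in each genotype, with medians of -0.56 and -0.48. Guf1, the mitochondrial form of elongation factor 4, changed by -1.15 ± 0.16 in Δ/+ and -1.19 ± 0.15 in Δ/DN. Slirp, which stabilises mitochondrial mRNA with Lrpprc, rose by 0.97 ± 0.10 and 0.91 ± 0.09. Lrpprc itself changed by -0.57 ± 0.09 in Δ/+ and -0.38 ± 0.08 in Δ/DN. Mrrf, the recycling factor, changed by -0.88 ± 0.13 in Δ/+ and -0.59 in Δ/DN. Mtrf1l, a release factor, changed by -0.59 in Δ/+ and -0.77 ± 0.12 in Δ/DN. Mtfmt, which formylates the initiator, changed by -0.56 in Δ/+ and -0.82 ± 0.13 in Δ/DN. All of these passed, and the difference of the LPS effects passed for none of the 28 assembly genes or 15 factors. Of 5 mitoribosomal protein genes not named Mrp, Gadd45gip1 and Ptcd3 fell in both genotypes. Whether these shares differ from that of the 78 members was not tested.

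Among 13 regulators of mitochondrial transcription and biogenesis, 6 fell and 4 rose in Δ/+ and 5 fell and 3 rose in Δ/DN. Over all genes tested, 25.3% fell and 22.4% rose in Δ/+, and 25.1% fell and 23.1% rose in Δ/DN. Ppargc1b, a coactivator of mitochondrial biogenesis, fell from 33.4 ± 6.81 (SD, n = 4) to 1.85 ± 0.49 CPM (n = 3) in Δ/+ and from 51.6 ± 5.42 to 3.23 ± 0.78 CPM (n = 4 each) in Δ/DN. Its log2 changes were -4.16 ± 0.25 (SE) and -4.00 ± 0.22. Myc, a transcription factor that drives ribosome and mitochondrial genes, changed by -3.28 ± 0.26 and -2.37 ± 0.22. Pprc1, a related coactivator, changed by -1.14 ± 0.11 and -0.66 ± 0.10. Gabpb1, the partner of the ETS factor GABPA, rose by 1.29 ± 0.08 and 0.88 ± 0.07. Gabpa rose by 0.71 ± 0.09 in Δ/+ and by 0.53 in Δ/DN (-0.05 in Δ/DN with library totals). Nrf1 did not pass in Δ/+ (0.19 ± 0.10).

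The mRNAs that this ribosome translates were followed too. Beside the counts below, 22.4% of all genes tested rose and 25.3% fell in Δ/+ on the TMM scale. In Δ/DN, 23.1% rose and 25.1% fell. Of the 13 mRNAs encoded in mitochondrial DNA, 3 rose and 0 fell in Δ/+ and 10 rose and 0 fell in Δ/DN by edgeR's test (6 and 12 had an unadjusted p under 0.05), with medians of 0.32 and 0.41; with library totals 0 rose, 3 fell in Δ/+ and 1 fell in Δ/DN, with medians of -0.33 and -0.17. Of 75 nuclear genes of the respiratory chain and ATP synthase, 18 rose and 4 fell in Δ/+ and 9 rose and 7 fell in Δ/DN (medians 0.11 and 0.04; -0.55 and -0.54 with library totals). Of 82 cytosolic ribosomal protein genes, 17 rose and 0 fell in Δ/+ and 13 rose and 0 fell in Δ/DN by edgeR's test (27 and 20 had an unadjusted p under 0.05; medians 0.19 and 0.12, and -0.47 and -0.46 with library totals, where 73 and 78 fell). On both scales the median of the mitochondrial ribosomal protein genes (-0.84 in Δ/+ and -0.80 in Δ/DN with library totals) lay below those of these 3 lists, and these differences between lists were not tested. Over all genes tested the median with library totals was -0.73 in Δ/+ and -0.67 in Δ/DN.

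The genotype comparison asked whether catalytically inactive MYSM1 changed the level of these genes. Without LPS, 1 of the 78 members was higher in Δ/DN (5.01% of all genes tested were) and 0 were lower (5.45% were). By edgeR's test 16 members had an unadjusted p under 0.05, where 5470 of the 20865 genes tested did. DESeq2 called 2 higher (Mrpl13 and Mrpl51) and 2 lower (Mrpl50 and Mrps2). The median difference, Δ/DN minus Δ/+, was 0.07 for the members and 0.01 for all genes. With LPS, 1 member was higher in Δ/DN (5.37% of all genes) and 0 were lower (3.23%). In edgeR's test 8 members had an unadjusted p under 0.05, where 5286 of the 20865 genes tested did. DESeq2 called 2 higher with LPS (Mrpl42 and Mrpl51) and 0 lower. The median difference was 0.00 after rounding (0.0032), and 0.16 with library totals.

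Mrpl13 was the gene called without LPS. The 4 Δ/DN US libraries (14.8, 16.8, 17.0 and 13.2 CPM) lay above the 4 Δ/+ US libraries (12.0, 11.2, 13.1 and 10.2 CPM), by a margin of under 1 CPM at the nearest pair. The log2 difference was 0.44 ± 0.13 (SE, adjusted p = 0.0434), higher in 4 of 4 Δ/DN libraries. The call passed in 11 of 23 alternative settings, did not pass when any 1 of the 4 Δ/DN US libraries, of the 3 Δ/+ LPS libraries or Δ/+ US replicate 1, 2 or 4 was left out, and without Δ/DN US replicate 3 the difference was 0.36 (adjusted p = 0.0646). With LPS, Mrpl13 was at 0.03 ± 0.15.

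Mrpl51, a large subunit gene, was called with LPS. Its levels were 10.8, 10.3 and 12.6 CPM in Δ/+ LPS and 15.7, 15.9, 16.0 and 17.1 CPM in Δ/DN LPS libraries, which did not overlap. The log2 difference was 0.50 ± 0.11 (SE, adjusted p = 0.0188), higher in 4 of 4 Δ/DN libraries, and it passed in 20 of 23 alternative settings; it did not pass without Δ/+ LPS replicate 1, without Δ/+ LPS replicate 2 or without Δ/DN LPS replicate 2. Without LPS, its levels were 19.4, 18.1, 22.3 and 18.5 CPM in Δ/+ and 22.002, 24.2, 26.4 and 25.2 CPM in Δ/DN, which met at 1 library each. That difference was 0.30 ± 0.10 (adjusted p = 0.0601). Mrpl51 fell with LPS in both genotypes (-0.79 ± 0.11 in Δ/+ and -0.59 ± 0.09 in Δ/DN).

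**Figure D4:**
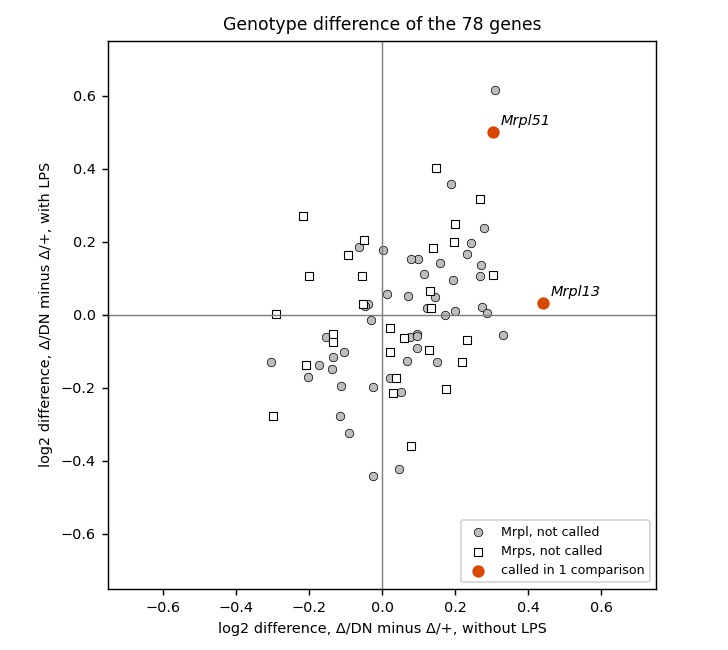
Each point is 1 of the 78 genes, with its log2 difference of Δ/DN from Δ/+ without LPS on the x axis and with LPS on the y axis. Mrpl13 (0.44, 0.03) and Mrpl51 (0.30, 0.50) were each called in 1 comparison, and the other 76 genes in neither.

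The difference of the LPS effects between genotypes passed for none of the 78 members. Among all genes tested 0% were called higher and 0.00479% (1 gene) lower in edgeR's test. Of the members, 5 had an unadjusted p under 0.05 in that test, where 1873 of the 20865 genes tested did, and DESeq2 called 0 members. The smallest p-values belonged to Mrps22 (-0.44 ± 0.17, adjusted p = 0.431), Mrps18b (0.49 ± 0.19, adjusted p = 0.448) and Mrpl27 (-0.47 ± 0.20, adjusted p = 0.511). Mrpl27 had a difference of -0.26 without Δ/DN US replicate 3. Over all genes tested, 5.01% were higher in Δ/DN and 5.45% lower without LPS, and 5.37% were higher and 3.23% lower with LPS. Among the related lists, the genotype comparison called 1 of the 28 assembly genes without LPS (Mterf3, at -0.37 ± 0.09) and 1 with LPS (C1qbp, higher by 0.47 ± 0.14, adjusted p = 0.0464). Hemk1, which methylates release factors, was higher in Δ/DN by 0.62 ± 0.19 without LPS and by 0.75 ± 0.21 with it, with adjusted p-values of 0.0485 and 0.041. Gabpb1 (-0.56 ± 0.09) and Gabpa (-0.39 ± 0.09) were lower in Δ/DN with LPS, and Pprc1 (-0.45 ± 0.10) and Tfb2m (-0.38 ± 0.11) were lower without it. Of the 75 nuclear respiratory chain and ATP synthase genes, 11 were higher in Δ/DN without LPS and 1 with LPS, and none was lower. By edgeR's test 39 and 15 of them had an unadjusted p under 0.05, in either direction. Of the 82 cytosolic ribosomal protein genes, 16 were lower in Δ/DN without LPS and 19 with LPS (12 and 8 with library totals), and none was higher in either by edgeR's test (39 and 47 had an unadjusted p under 0.05, in either direction).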

How the data were processed

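Per the labels, ribosomal RNA was depleted before library preparation. The authors deposited 1 table per library with raw read counts for 50554 genes and a gene length. That length entered no level or test and was only set beside the annotated transcript lengths. Per the submitters' processing notes, HISAT2 2.2.1, featureCounts, Trimmomatic 0.33, FastQC, bedtools and edgeR were listed, under the build names GRCm39 and mm39; their settings and the use of strand are not given in the sources used here. Samples were grouped by their own titles.

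All 15 libraries entered 1 model (edgeR 4.0.16, R 4.3.3; quasi-likelihood test, robust dispersion, TMM, filterByExpr with a minimum count of 10) with 4 groups and library set (2 or 3, from the library names) as a term. Benjamini-Hochberg adjustment covered the 20865 genes tested, and calls were made at 0.05. The script was tested on simulated counts. Alternatives used DESeq2 1.42.0, other scalings, no filter, no set term, set 2 alone, culture as a block, and each library left out. Library names tie the US and LPS library of 7 cultures; deviations from group means correlated at 0.0643 to 0.428 within cultures and at -0.227 to 0.136 between them. No 2 libraries of a group agreed within sampling noise (lowest chi-square per degree of freedom 24.2).

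Transcript lengths came from GENCODE M21 and promoters from RefSeq (GRCm38.p6), matched by symbol (78 and 69 of 78). The members and gene lists were chosen with earlier results of these data known. Genes named are the 5 largest calls in each direction, calls against the majority, the smallest 3 p-values where none was called, the role lists, the 5 highest and lowest levels, and in other lists the 4 smallest p-values of called genes; other named genes were chosen after their values were seen.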

Additional observations from a re-analysis of the deposited data

Results flagged for a closer look

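In 7 of the 75 groups of 4 libraries examined for 24 named members and the summed level of all members, 1 library lay far from the other 3 (Dixon's test; chance gives about 1 in 20). In Δ/DN US replicate 3, Mrpl27 was at 19.0 CPM (others 11.5 to 12.4), Mrpl39 at 30.8 (22.1 to 22.7), Mrps18a at 17.7 (14.3 to 14.9) and Mrpl42, in the other direction, at 8.78 CPM (13.2 to 13.8). In Δ/+ US replicate 3, Mrpl54 was at 16.4 CPM (12.5 to 12.7) and Mrps18c at 14.1 CPM (11.9 to 12.2). In Δ/DN LPS replicate 4, Mrpl58 was at 9.17 CPM (6.01 to 6.54). The Δ/DN US library of replicate 3 also held 10.4% of 7SL reads, and the part of this in its member levels was not tested.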

How the results depend on the processing

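With library totals, 1 member rose and 71 fell with LPS in Δ/+, and 0 rose and 73 fell in Δ/DN. With that scaling these single values, called or not, turned: in Δ/+ Mrpl10 -0.61, Mrpl30 -0.36, Mrpl53 -0.47, Mrpl54 -0.24, Mrps18a -0.30, Mrps18c -0.23 and Mrps30 -0.65, and in Δ/DN Mrpl13 -0.084, Mrpl32 -0.086, Mrpl39 -0.22, Mrpl53 -0.49, Mrps18a -0.44, Mrps18c -0.39 and Mrps6 -0.27. Some uncalled values near 0 also crossed it elsewhere, such as Mrps30 in Δ/DN (0.034 in set 2 alone). The scaling itself moves the median of all genes down with LPS, to -0.73 in Δ/+ and -0.67 in Δ/DN. In the genotype comparison with LPS, DESeq2 and the fit without a filter each gave 2 higher, and set 2 alone gave 2 higher and 1 lower. Without LPS, DESeq2 gave 2 higher and 2 lower, and set 2 alone and the fit without a set term each gave 0 higher; the cause was not tested. Leaving out libraries gave 4 to 10 rises with LPS in Δ/+, 4 to 9 in Δ/DN, 0 to 2 higher and 0 to 1 lower between genotypes without LPS, and 0 to 2 and 0 to 1 with LPS. With culture as a replicate block, 7 rose and 33 fell in Δ/+ and 6 rose and 37 fell in Δ/DN, and 0 and 0 members passed for the difference of the LPS effects, so the pairing moved none of these counts by over 1.5 times. The genotype comparisons lie between cultures and were not run with the block. Of 29 called effects of named members, 13 passed in the same direction in each alternative run. Members had 112 to 4019 reads in a library, and counting error was not separated from the spread between cultures. Set 3 holds no Δ/+ LPS library, so the LPS effect in Δ/+ rests on set 2 apart from 1 US library.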
